A study of Mus musculus with 4 samples.

Results

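The keratin family on these arrays comprised 39 genes with 42 probes, out of 17016 genes with a symbol and 41174 probes in all. Its members were chosen by name alone, as every probe whose accession matched a mouse symbol made of Krt, a number and at most 1 letter. The RNA came from gastric tumours of K19-Wnt1/C2mE mice aged 30 weeks, digested for 3 h and sorted, within the lineage-negative cells, by CD44 into a positive and a negative group of 2 arrays each. All 4 samples carry the same transgenes, in which the promoter of keratin 19 drives Wnt1 together with the prostaglandin enzymes Ptgs2 and Ptges, so a keratin promoter defines the epithelium of the model. Both groups come from these tumours, and no separate samples of normal stomach, forestomach or mice without the transgenes were analysed here. Whether other stomach tissue was in the digest was not tested. The question of the sort was which transcripts differ between tumour cells with and without CD44, a receptor for hyaluronan. The labels do not say whether replicates came from separate or pooled mice, so errors and p-values below cover only how far these samples lie apart, and that distance may be technical.

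Keratins are the intermediate filament proteins of epithelial cells, and each filament joins a type I (acidic) with a type II (basic) keratin. Simple, 1-layered epithelia such as the glandular stomach are known for Krt8 with Krt18, joined by Krt7, Krt19, Krt20 and Krt23. Stratified epithelia such as skin and the rodent forestomach use Krt5 with Krt14 and Krt15 in the basal layer, and other pairs such as Krt1 with Krt10 (epidermis) or Krt4 with Krt13 (mucosa) above it. Krt6a, Krt6b, Krt16 and Krt17 are known for wounded, hyperproliferating and appendage epithelia, and are called activation keratins below. Many of the remaining members build hair, nail and root sheath, and some belong to other stratified epithelia, such as Krt9 (palm and sole skin) and Krt12 (cornea).

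Signal is given below as relative signal, the background-subtracted intensity of a probe divided by the 75th percentile of all gene probes on the same array. Relative signals can be compared between arrays for 1 probe but not between probes, because probes differ in how brightly they report. Differences are log2 values, CD44+ minus CD44-, with the standard error (SE) of limma's fit over 2 arrays per group. A gene was called when its Benjamini-Hochberg adjusted p over all 21045 genes tested was under 0.05. Of these, 13411 have a symbol, and the others are accessions without one, each counted as a gene. A gene entered the test where both arrays of CD44+ or both of CD44- cells read it well above background. All 4 arrays lay on 1 slide. Over single gene spots, before outliers were removed and spots averaged, their 75th percentiles ran from 257 (CD44+ replicate 1) to 575 (CD44- replicate 2). The divisors of relative signal were taken after those steps and differ somewhat. Cd44 gave relative signals of 79.4 and 93.1 in CD44+ and 19.2 and 34.4 in CD44- cells, in the direction of the sort, though its adjusted p of 0.199 did not pass in limma's test. Of 12 markers of glandular epithelium, 11 were tested and all of these were well above background on all 4 arrays.

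All 6 simple keratins were well above background on all 4 arrays and none of them passed, while 4 keratins of stratified epithelium were far lower in CD44+ than in CD44- cells and others of that kind had values in the same direction. Of the 39 keratin genes, 28 were tested. Of these, 4 fell and passed (Krt16, Krt17, Krt6b and Krt10) and 0 passed as higher. Over all genes, 0.375% passed as lower and 0.0238% as higher. The 4 that passed were 72.3-fold, 82.9-fold, at least 9.15-fold and 8.42-fold lower in CD44+ cells. By a second rule, 10 keratins were over 2-fold lower with groups that did not overlap, a rule that 9.66% of all genes met. They were Krt5, Krt14, Krt15, Krt6a, Krt6b, Krt16, Krt17, Krt13, Krt1 and Krt10, all of them keratins of stratified epithelium. Of the 28, 14 had a difference below 0 and 14 above it, and their median was -0.01, beside a median of 0.16 for all genes tested. In these bulk samples, fewer cells of a type and less RNA per cell cannot be told apart.

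**Figure D1:**
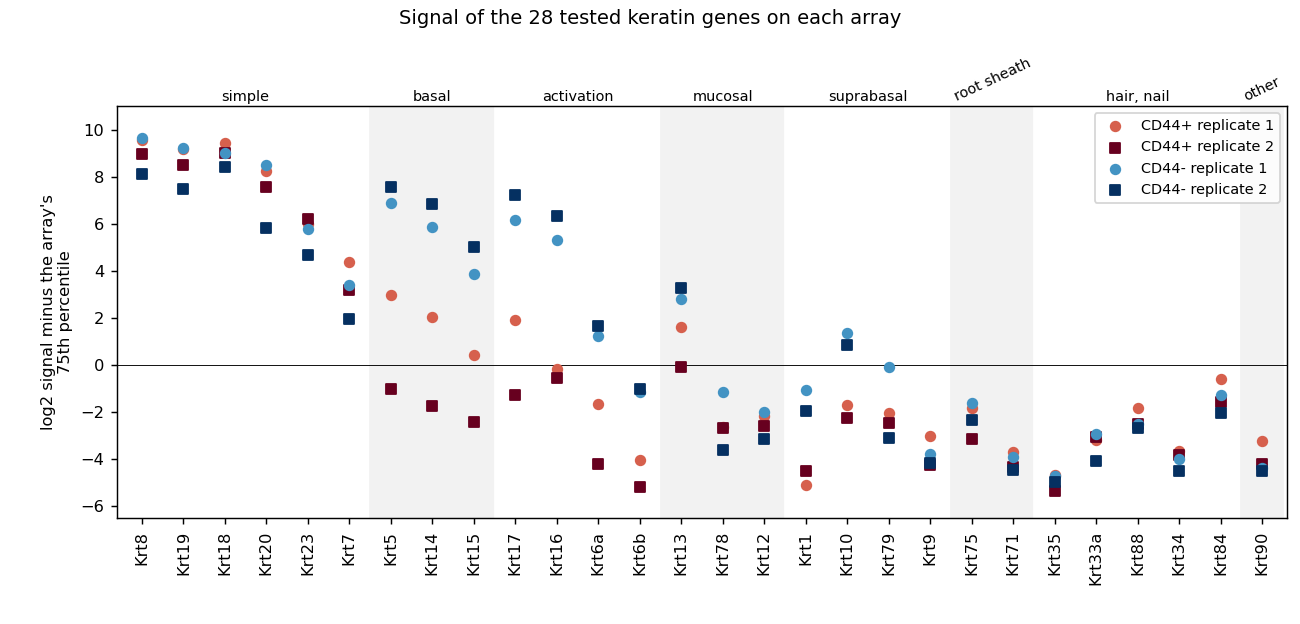
Signal of the 28 tested keratin genes on each of the 4 arrays, as log2 of the relative signal, with genes grouped by the epithelium they are known for. Each point is 1 array, and heights can be compared between arrays within a gene but not between genes. The basal and activation keratins lie higher on both CD44- arrays (blue) than on both CD44+ arrays (red), whereas in 4 of the 6 simple keratins the arrays of both groups overlap.

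Krt8 and Krt18, the founding partners of simple epithelial filaments, did not pass. Krt8 gave relative signals of 744 and 505 in CD44+ and 793 and 275 in CD44- cells, so the groups overlapped. Its difference was 0.39 ± 0.60 (SE), with a 95% interval from -0.98 to 1.76. A second Krt8 probe gave 814 and 444 against 663 and 250, a difference of 0.56 ± 0.60. Krt18 gave 680 and 513 in CD44+ and 508 and 344 in CD44- cells, where the lowest CD44+ value lay just above the highest CD44- value. Its difference was 0.50 ± 0.47, with an interval from -0.58 to 1.58.

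The other 4 simple keratins did not pass either. Krt19, a keratin of ducts and gastric glands whose promoter drives the transgenes, gave 578 and 362 in CD44+ and 591 and 179 in CD44- cells. Its difference was 0.49 ± 0.63, with an interval from -0.97 to 1.95, and the CD44- arrays spanned the CD44+ arrays. Of the genes the transgenes carry, Wnt1 differed by 0.67 ± 0.54, Ptges by -1.14 ± 0.52 and Ptgs2 by -4.09 ± 0.89, and none of them passed. For Ptgs2 the first CD44+ array was not well above background, so its value has background signal on that array. Whether those probes read the transgenes is not known here. Krt20, the keratin of surface cells in the gastrointestinal tract, gave 299 and 188 against 365 and 57.0, with the highest and the lowest signal both in CD44- cells. It differed by 0.72 ± 0.81. Krt7, a keratin of ductal and other simple epithelia, gave 20.7 and 9.14 against 10.6 and 3.87, a difference of 1.10 ± 0.64 with overlapping groups. Krt23 gave 63.9 and 73.4 against 54.5 and 25.7, which do not overlap, and differed by 0.87 ± 0.51.

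All 6 simple keratins thus had a difference above 0, from 0.39 (Krt8) to 1.10 (Krt7) with a median of 0.61, and none passed. The adjusted p of the 6 ran from 0.675 to 0.854, and the intervals do not exclude changes of over 2-fold. For Krt8, Krt18, Krt19 and Krt20 the spots on all 4 arrays carried the scanner software's flag for a value scaled up from the low-gain reading of the slide, which it uses for bright spots. The flag was also on 2 arrays each for Krt23, Krt5, Krt14 and Krt17, and on 1 array for Krt16. In Krt5, Krt14, Krt16 and Krt17 the bright arrays were those of CD44- cells, so the flag need not fall evenly on the groups. What it adds to their differences was not tested. No spot was saturated. The direction for Krt8, Krt19 and Krt20 turned with CD44- replicate 2 left out, to -0.37, -0.37 and -0.62. With CD44- replicate 1 left out, Krt20 differed by 2.06 and passed as higher (adjusted p = 0.0404 in limma's test). That fit has a single CD44- array, which is assumed to vary like the CD44+ arrays. Every simple keratin was lower on CD44- replicate 2 than on CD44- replicate 1, as were all 11 markers of glandular epithelium tested. The summed relative signal of these markers was 1433 and 2632 on those CD44- arrays in that order, and 3988 and 2268 on CD44+ replicates 1 and 2. Such a sum weighs the brightest probes most, here those of Tff1, Tff2 and Gkn2. On all genes the median difference between those CD44- arrays was -0.15, and for the simple keratins it was -1.49. What the glandular content of an array contributes to the simple keratin values was not tested.

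The basal keratins had the largest signal differences of the family together with Krt16 and Krt17. Krt5, the basal type II keratin, gave relative signals of 7.79 and 0.494 in CD44+ cells and 119 and 191 in CD44- cells. Its partner Krt14 gave 4.14 and 0.300 against 58.2 and 115. Krt15, a basal type I keratin also known for slow-cycling cells of the hair follicle and oesophagus, gave 1.34 and 0.189 against 14.7 and 32.4. For each of the 3 genes both CD44- arrays lay far above both CD44+ arrays, and the CD44+ arrays lay far apart from each other. The differences were -6.27 ± 1.10 for Krt5 (77.0-fold), -6.20 ± 1.07 for Krt14 (73.3-fold) and -5.44 ± 0.88 for Krt15 (43.4-fold). None of the 3 passed in limma's test (adjusted p of 0.0768, 0.0731 and 0.0569). The partners Krt5 and Krt14 thus gave nearly the same fold.

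Among the activation keratins 3 of 4 fell and passed. Krt16 gave 0.889 and 0.673 in CD44+ cells and 39.3 and 79.5 in CD44- cells. It had the tightest CD44+ values of the group, and differed by -6.17 ± 0.51 (adjusted p = 0.00544 in limma's test). Krt17, which shares much of its sequence with Krt14 and Krt16, gave 3.72 and 0.416 against 70.5 and 150.5 and differed by -6.37 ± 0.94 (adjusted p = 0.0422). The type II partners gave 1 call. Krt6b gave 0.0617 and 0.0273, neither well above background, against 0.450 and 0.494 in CD44- cells, so it is given only as at least 9.15-fold lower (adjusted p = 0.0429). Krt6a gave 0.319 and 0.0533 against 2.33 and 3.19 and differed by -4.38 ± 0.79, with an adjusted p of 0.0828 that did not pass. Krt6a and Krt6b are near-identical copies, and Krt14, Krt16 and Krt17 are close relatives. Probe sequences were not used here, so how far each probe reads only its own gene is uncertain. For such a limit the CD44- mean was set against a floor on each CD44+ array, which was the dimmest probe well above background there or Krt6b itself where that was brighter.

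**Figure D2:**
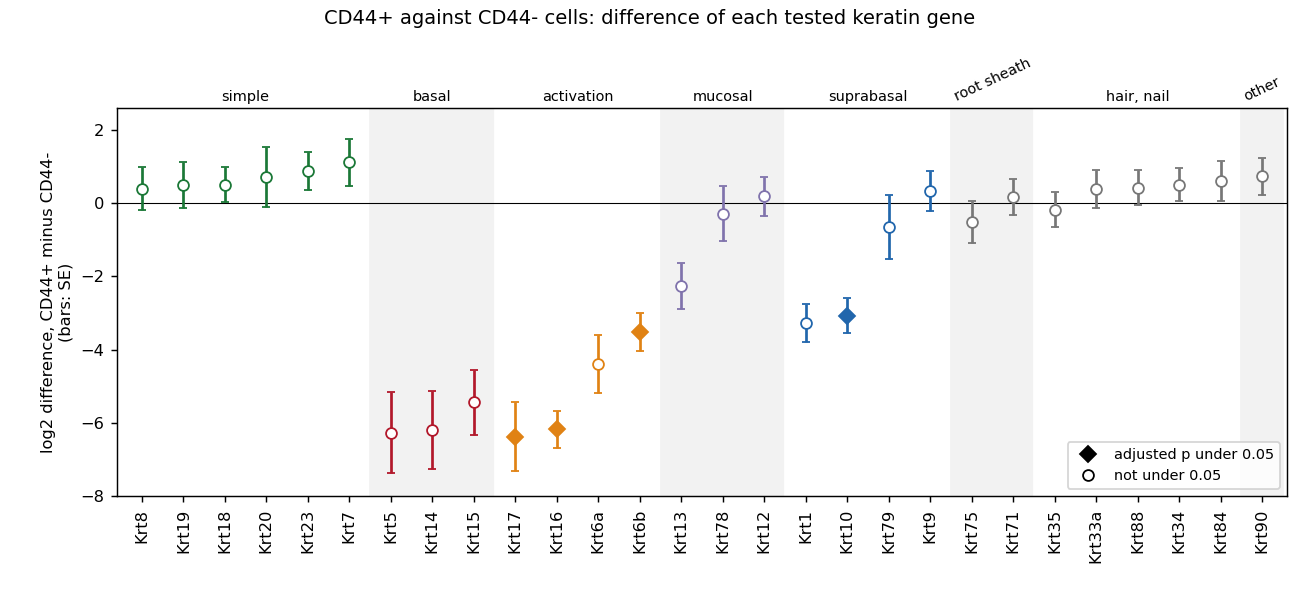
Log2 difference of each tested keratin gene, CD44+ minus CD44-, with bars for the SE of limma's fit (2 arrays per group). Filled diamonds mark the 4 genes with an adjusted p under 0.05 (Krt16, Krt17, Krt6b, Krt10), Krt6b is fitted against background signal in CD44+ cells, and the 6 simple keratins all lie between 0.39 and 1.10.

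Keratins of the upper layers of stratified epithelium split by gene. Krt10, the type I keratin of the spinous layer of epidermis, gave 0.308 and 0.211 in CD44+ and 2.59 and 1.78 in CD44- cells and fell by 3.07 ± 0.47 on the log2 scale (adjusted p = 0.0480 in limma's test). Its partner Krt1 gave 0.0293 and 0.0443 against 0.477 and 0.256, differed by -3.28 ± 0.51 and just missed the threshold (adjusted p = 0.0503). Only 1 CD44+ array read Krt1 well above background. In both partners the groups did not overlap, and the first CD44- array was the brightest. Krt13, the type I keratin of mucosal suprabasal cells, gave 3.09 and 0.945 against 7.04 and 9.63 and differed by -2.27 ± 0.62 (adjusted p = 0.192). A second Krt13 probe, not well above background in CD44+ cells, gave 1.09 and 0.360 in CD44- cells and a fitted difference of -4.72 ± 0.90 (adjusted p = 0.0877 over all 26508 probes tested). Its type II partner Krt4 gave 0.0413 and 0.0276 in CD44+ and 0.0461 and 0.0174 in CD44- cells and read well above background on only 1 array, so it stayed untested. Krt78 (0.453 and 0.0826) and Krt79 (0.935 and 0.117) differed between the CD44- arrays by 5.48-fold and 7.97-fold, and their differences of -0.29 ± 0.75 and -0.66 ± 0.87 did not pass. Krt9, a keratin of palm and sole skin, and Krt12, a keratin of the cornea, differed by 0.33 ± 0.54 and 0.19 ± 0.53, and their groups overlapped.

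Hair, nail and root sheath keratins were dim and gave no call. Of these and the remaining members, 8 were tested, and each had a relative signal under 0.7 on all 4 arrays. Their differences ran from -0.52 (Krt75) to 0.72 (Krt90), and the others were Krt33a, Krt34, Krt35, Krt71, Krt84 and Krt88. The first CD44+ array for Krt34 and Krt71, and both for Krt35, were not well above background. Krt34, Krt88 and Krt90 had both CD44+ arrays above both CD44- arrays, as had Krt18 and Krt23 among the simple keratins. That makes 5 of 28 keratins, 17.9%, beside 22.4% of all genes. Another 11 members were not tested. Of these, Krt25, Krt26, Krt27, Krt31, Krt82, Krt86 and Krt87 were well above background on 0 arrays, Krt2 and Krt4 on 1 array, and Krt76 and Krt222 on 1 array of each group. The RefSeq table names 54 keratin genes of this form, and the other 15 had no matched probe.

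Between the CD44- arrays, the simple keratins differed in the opposite direction to the basal and activation keratins. On CD44+ replicate 1 the basal keratins were far brighter than on CD44+ replicate 2, by 15.8-fold for Krt5, 13.8-fold for Krt14 and 7.10-fold for Krt15. Krt17 followed with 8.94-fold and Krt6a with 5.99-fold, whereas Krt16 differed by 1.32-fold and Krt10 by 1.46-fold. The CD44+ arrays thus lay close together for Krt16 and Krt10, which were called, and far apart for Krt5, Krt14 and Krt15, which were not. Krt17 was called although its CD44+ arrays lay far apart as well. In CD44- cells all 7 basal and activation keratins were higher on replicate 2, and Krt10, Krt1, Krt78 and Krt79 were lower there, as the simple keratins were. The 7 were higher by 1.10-fold (Krt6b) to 2.20-fold (Krt15). Only 8 of all 28 keratins were, and 41.2% of all genes. On the CD44+ arrays 25 of 28 keratins were higher on replicate 1, and 47.2% of all genes.

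**Figure D3:**
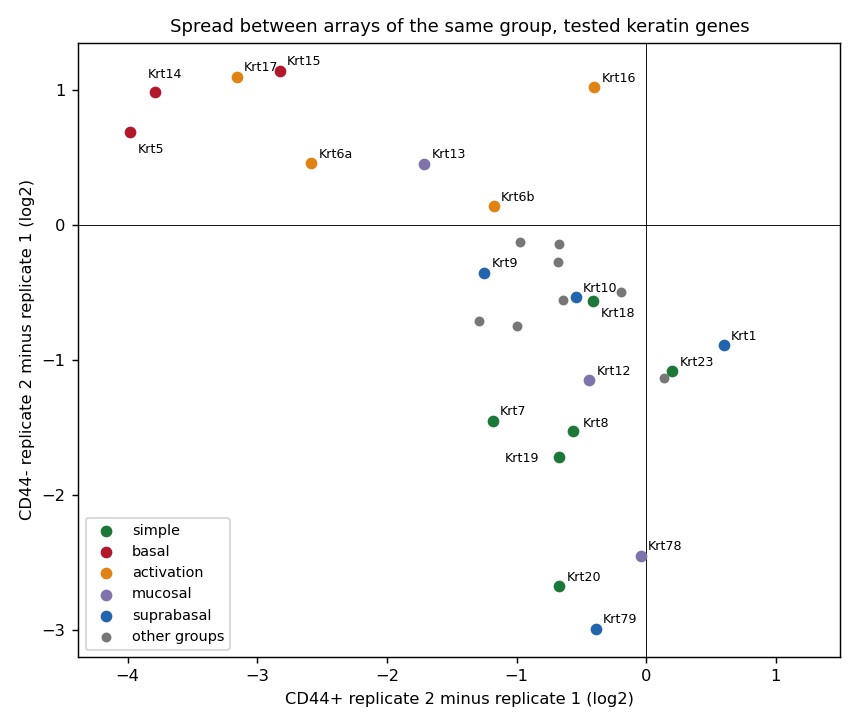
Log2 difference between the arrays of the same group for the 28 tested keratin genes, with CD44+ replicate 2 minus replicate 1 on the horizontal axis and CD44- replicate 2 minus replicate 1 on the vertical axis. Basal and activation keratins lie in the upper left (lower on CD44+ replicate 2, higher on CD44- replicate 2), Krt16 stands apart from them at -0.40 on the horizontal axis, and all 6 simple keratins lie below 0 on the vertical axis.

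Markers of other cells moved in the same comparison. The summed relative signal of the 3 basal keratins was 13.3 and 0.982 in CD44+ cells against 191.8 and 338 in CD44- cells. That of 8 fibroblast markers was 7.78 and 42.9 against 68.25 and 456, that of 5 endothelial markers 1.10 and 1.39 against 3.41 and 44.8, and that of 7 enteroendocrine markers 3.79 and 5.22 against 366 and 779. On the first CD44+ array, where basal keratins were higher, 7 of 8 fibroblast markers were lower, and all 8 were higher on the second CD44- array. Of the fibroblast and endothelial markers tested, 8 of 8 and 4 of 5 had a difference below 0, and 0 of either passed. Among them Lum, Dcn and Col1a2, matrix genes of fibroblasts, differed by -3.83 ± 0.98, -3.46 ± 0.97 and -3.18 ± 1.07, and Dpt was at least 3.83-fold lower. The endothelial genes Cdh5, Kdr, Egfl7 and Esam differed by -4.45 ± 0.94, -4.65 ± 1.16, -4.44 ± 1.11 and -2.20 ± 0.87. For Cdh5, as for Tyrobp and Laptm5 below, the first CD44+ array was not well above background. Of the enteroendocrine markers, 7 of 7 were below 0 and 6 fell and passed, with -8.06 ± 0.48 for the granule protein gene Chgb, -5.16 ± 0.48 and -6.41 ± 0.65 for the hormones Pyy and Sst, and -4.77 ± 0.52 for Tph1, an enzyme of serotonin synthesis. Markers of mesothelium, another keratin-bearing layer, did not pass, with 2 of 5 tested, a difference of 0.47 and an interval from -0.78 to 1.72 for Msln, and 0.35 and an interval from -1.01 to 1.72 for Upk1b. Leukocyte markers summed to between 0.86 and 0.91 on the 4 arrays, but this sum hides members that went opposite ways. Of the 5, 1 was higher and called (Cd53, at least 9.06-fold). Tyrobp, Laptm5 and Ptprc differed by -1.74 ± 0.53, -1.48 ± 0.57 and -0.66 ± 0.47 and did not pass. The part of these cells in the keratin differences was not tested.

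Among genes that work with stratified keratins, calls came from the cornified envelope list, with 4 of 16, and not from the squamous regulators, with 0 of 13. Trp63, the transcription factor p63 that basal cells of stratified epithelium need, gave 0.319 and 0.0146 in CD44+ and 3.67 and 6.93 in CD44- cells. It differed by -6.21 ± 1.22 (adjusted p = 0.104), so it had the same order of arrays as Krt5 and did not pass either. Col17a1, a collagen of the hemidesmosome that anchors basal keratin filaments, gave 0.538 and 0.00910 against 4.57 and 13.6, again in that order, and differed by -6.81 ± 1.58 (adjusted p = 0.141). Only the first CD44+ array read either gene well above background. The median of the 13 squamous regulators was -0.38. Tfap2c, an AP-2 factor of surface ectoderm, was at least 6.35-fold lower with an adjusted p of 0.0641. Pax9 and Ovol1, regulators of foregut and epidermal epithelium, differed by 1.05 ± 0.46 and -1.03 ± 0.47. Of 16 cornified envelope genes 4 fell and passed: Krtdap at least 206-fold, Sprr2d 51.1-fold, Lgals7 46.4-fold and Tgm1, the transglutaminase that crosslinks the envelope, 22.9-fold. No CD44+ array read Krtdap well above background, so it was fitted against background signal there, and only 1 CD44+ array read Tgm1 well above background. The other 12 did not pass, and the median of the 16 was -0.15. Of the 16, 8 had a difference below 0 and 8 above it, so the list as a whole was not lower. By the second rule, over 2-fold with groups that did not overlap, 6 were lower and 1 was higher.

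No gene of the junctions that keratin filaments attach to passed. Of 12 desmosome and plakin genes tested 0 passed, with a median of -0.02. Dsg3, the desmoglein of basal stratified cells, was at least 1.28-fold lower. Pkp2, Perp and Ppl, other desmosomal parts, differed by 0.68 ± 0.47, -0.59 ± 0.44 and 0.53 ± 0.45. Of 8 hemidesmosome genes 0 passed and the median was 0.25. Itga6, the integrin subunit that partners Itgb4 there, differed by 0.53 ± 0.45 and the linker Dst by -0.67 ± 0.46. The 8 keratin partners tested lay between 0.06 and 0.53 (Krtcap2 0.50 ± 0.46, Krtcap3 0.25 ± 0.47, Sfn 0.27 ± 0.45). Among 12 other intermediate filament genes 0 passed. Vimentin (Vim), the filament of mesenchymal cells, gave 0.459 and 2.93 against 4.10 and 56.0 and differed by -3.71 ± 1.23, and its arrays were ordered like the fibroblast markers and not like Krt5. Synm, a filament protein of muscle and likewise not well above background on the first CD44+ array, differed by -2.22 ± 0.90, and the neurofilament gene Nefh and lens filament gene Bfsp1 by 1.36 ± 0.48 and -1.09 ± 0.44. Of the epithelial junction genes, Epcam gave 25.9 and 25.3 against 10.12 and 6.50 (1.66 ± 0.46) and Cldn7 differed by 1.84 ± 0.44. E-cadherin (Cdh1) differed by 0.97 ± 0.54. None of these 3 passed. Muc5ac, the mucin of surface mucous cells, gave 1.20 and 0.494 against 55.0 and 6.84 and did not pass (adjusted p = 0.105).

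**Figure D4:**
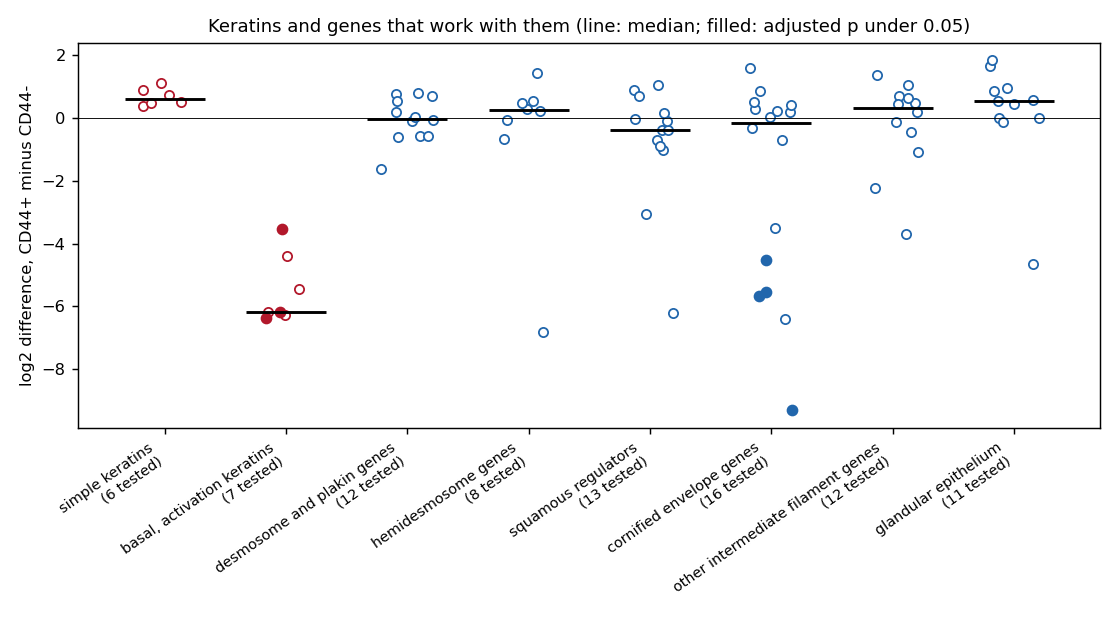
Log2 differences, CD44+ minus CD44-, of the simple keratins, the basal and activation keratins and 6 lists of genes that work with keratins or mark glandular epithelium. Each point is a tested gene, filled where its adjusted p was under 0.05, and lines are medians. Of the basal and activation keratins, 6 lie between -6.37 and -4.38 and Krt6b, the highest point, is fitted against background signal in CD44+ cells, while the desmosome and hemidesmosome lists have medians of -0.02 and 0.25.

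Neighbours in the genome differed widely in their values. Type I keratin genes lie in a cluster on mouse chromosome 11 and type II genes in a cluster on chromosome 15, with Krt18 next to Krt8 as the only type I gene there. Along chromosome 11 the keratin genes follow in the order Krt13, Krt15, Krt19, Krt9, Krt14, Krt16, Krt17. Within this row Krt15 (-5.44) and Krt14 (-6.20) enclose Krt19 (0.49) and Krt9 (0.33). On chromosome 15, Krt6b, Krt6a and Krt5 lie side by side, with Krt6b at least 9.15-fold lower and differences of -4.38 for Krt6a and -6.27 for Krt5, between Krt75 (-0.52) and Krt71 (0.16). Krt1, with -3.28, lies apart from them, and Krt8 and Krt18 close the cluster with 0.39 and 0.50. The order is that of the RefSeq table (GRCm38.p6), and 14 genes of each cluster were tested.

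**Figure D5:**
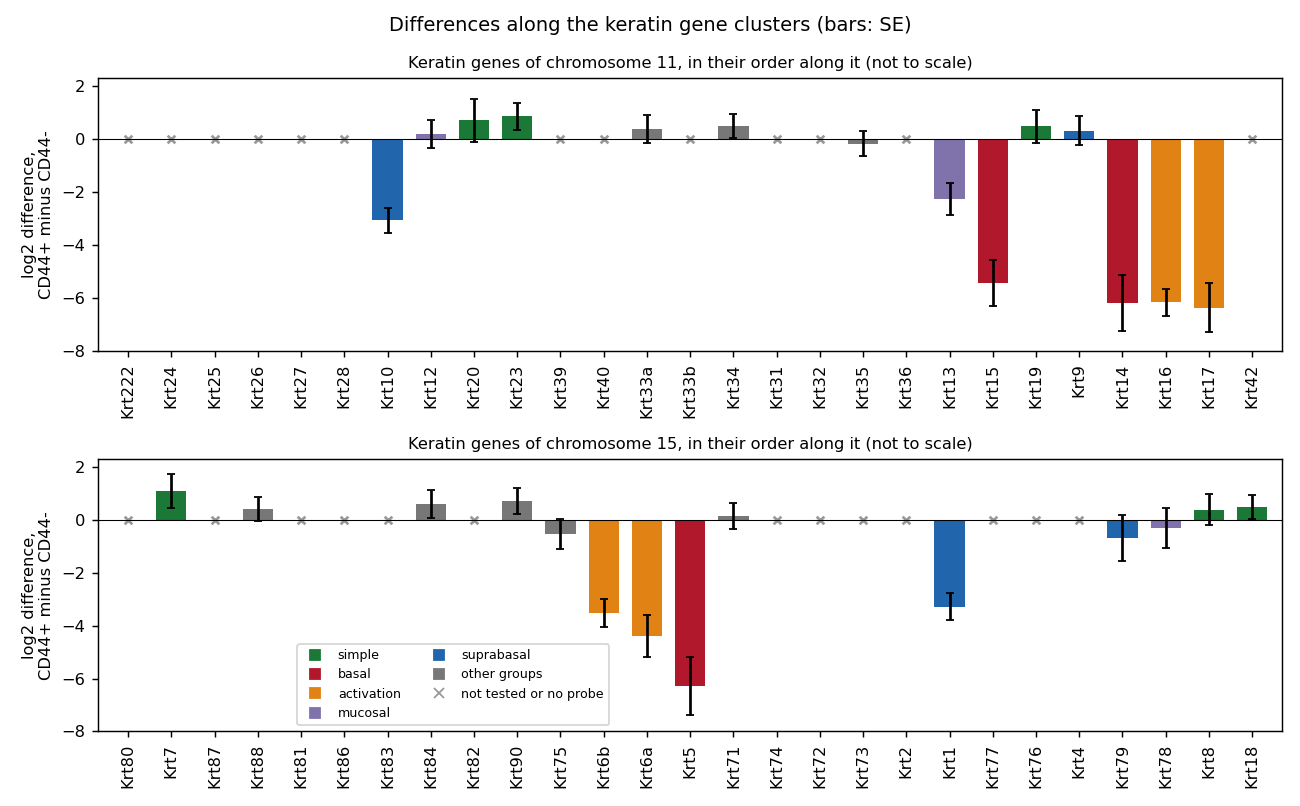
Log2 difference of the keratin genes in their order along chromosomes 11 and 15, evenly spaced, with bars for the SE and crosses for genes that were not tested or had no matched probe (Krt6b is fitted against background signal in CD44+ cells). Genes with far lower values in CD44+ cells stand next to genes near 0. Examples are Krt15 (-5.44) and Krt19 (0.49) on chromosome 11 and Krt5 (-6.27) and Krt71 (0.16) on chromosome 15, none of which passed.

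Krt10 was lower in CD44+ cells and passed, and Krt5 had far lower values there but did not pass. The partners Krt8 and Krt18 did not pass either and had differences above 0. The promoters of these 4 members are shown as examples of the contrast. Each runs from 150 bases before the RefSeq start to 10 bases after it (GRCm38.p6), 5′ to 3′ on the strand of the gene. Capitals mark the letters TATAAA or ATAAAA on either strand, 2 forms of the TATA element that overlap in TATAAAA.
Krt5, chr15:101712896-101713055, strand -: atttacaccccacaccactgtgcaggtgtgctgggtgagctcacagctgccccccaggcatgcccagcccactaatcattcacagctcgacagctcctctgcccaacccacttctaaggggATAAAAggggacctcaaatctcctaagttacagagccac
Krt10, chr11:99389355-99389514, strand -: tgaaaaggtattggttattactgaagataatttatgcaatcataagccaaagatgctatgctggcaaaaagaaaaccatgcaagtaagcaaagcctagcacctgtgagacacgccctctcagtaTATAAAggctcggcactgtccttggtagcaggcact
Krt8, chr15:102004333-102004492, strand -: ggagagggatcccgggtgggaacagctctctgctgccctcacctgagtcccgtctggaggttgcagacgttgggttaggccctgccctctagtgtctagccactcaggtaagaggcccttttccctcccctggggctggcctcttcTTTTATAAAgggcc
Krt18, chr15:102028066-102028225, strand +: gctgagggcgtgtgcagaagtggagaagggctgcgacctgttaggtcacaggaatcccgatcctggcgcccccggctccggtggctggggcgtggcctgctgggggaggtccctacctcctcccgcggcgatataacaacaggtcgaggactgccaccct
Krt5 holds ATAAAA from 29 bases before the start and Krt10 holds TATAAA from 26 bases before it. Krt8 holds the letters at the annotated start itself, and Krt18 holds neither form in its window. In the full 300 bases of the table, 18 of the 28 tested keratins had an entry. TATAAA on either strand occurred in 7 of them, beside 13.6% of all 32851 promoters. ATAAAA occurred in 11 of the 18, beside 18.5%. Of the simple keratins with an entry, 2 of 5 held TATAAA and 4 of 5 held ATAAAA, where the match in Krt7 began 7 bases before the start. Of the basal and activation keratins with an entry, 0 of 2 held TATAAA and 1 of 2 held ATAAAA. Counts this small, with matches at any position, give no comparison between the sides of the contrast.

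How firmly these values stand depends on the arrays and the scaling. No keratin passed with quantile normalization, with the 75th percentile taken over probes well above background on all 4 arrays, or without CD44+ replicate 2, and 1 (Krt16) passed with no filter on dim probes. With each array scaled to its median 10 keratins passed, all lower, and over all genes 121 were higher and 627 lower, against 5 and 79 in the fit given here. Median scaling moved all differences up by 0.11 and also changed the SE, from 1.07 to 0.78 for Krt14 and from 0.51 to 0.56 for Krt16. What raised the counts was not tested. All 10 of the lower stratified keratins kept their sign in every alternative tried. With the first or the second CD44+ replicate left out, in that order, the difference was -8.26 and -4.28 for Krt5, -8.09 and -4.30 for Krt14, -6.85 and -4.03 for Krt15, -7.95 and -4.79 for Krt17, -5.67 and -3.09 for Krt6a, -3.12 and -1.41 for Krt13, and -6.38 and -5.97 for Krt16. Krt10 ranged from -3.35 to -2.80 over the same omissions of 1 array.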

How the data were processed

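RNA of 4 sorted samples was measured on 1-colour oligonucleotide arrays, after 25 ng of total RNA was amplified and 0.2 ug of the product labelled, per the labels' protocols. Amplification can distort ratios between transcripts. The authors deposited scanner tables with intensity values: a processed signal after background subtraction, and raw median spot and background signals. The file headers name Agilent Feature Extraction 10.1.1.1 and the submitters' processing notes version 9.5, and which made the values is not settled. The authors' deposited value table holds a linear ratio of each probe to its median over the arrays. How the array factors in it were chosen is unknown, and its column medians are 0.853, 0.989, 0.928 and 0.739.

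Control spots and outlier spots (109 to 133 per array) were left out, spots of a probe were averaged, and log2 of the processed signal was centred on each array's 75th percentile. Probes were named by accession through RefSeq (24375 of 41174). Each gene took its brightest tested probe. Groups were compared with limma 3.58.1 in R 4.3.3, whose variance model added 6.01 to 2 residual degrees of freedom, and which was tested on simulated data. All tested keratins are named, with full values for the main simple and stratified members. Of each other list the 4 tested members with the smallest p are named, except 1 that is not reported here, with Cd44, Epcam, Cdh1 and Vim whatever their value; Wnt1, Ptgs2 and Ptges were added as the genes of the model. Members and lists were chosen with earlier results of these data known. Precision is limited by how few arrays there are. An exact permutation test of 2 against 2 arrays cannot go below a p of 0.333 and was not used.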

Additional observations from a re-analysis of the deposited data

How the results depend on the processing

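The count of called genes changed with most settings. For keratins (4 called) it was 10 with each array scaled to its median, 10 in the authors' value table, 9 with an intensity trend in the variance model, 8 with normexp background correction, 7 among genes well above background on all 4 arrays, 1 with no filter on dim probes, 0 with quantile normalization and 0 with the 75th percentile over probes well above background on all 4 arrays. Leaving out 1 array, with the lone array of its group assumed to vary like the others, gave 0 to 11. Over all genes (84 called) the same settings gave 748, 753, 130, 540, 79, 24, 6 and 3, and leaving out 1 array gave 2 to 1590. Averaging a gene's probes gave 3 keratins and 76 genes. The replicate numbers are shared between the groups, but the labels do not say that a number marks a shared mouse or day. Deviations of same-numbered arrays correlated at 0.35 over genes, and with only 2 numbers this does not settle the pairing. With the replicate number as a block, 10 keratins and 1829 genes passed. The SE was the same for every tested keratin in that fit (0.516), and likewise with normexp (0.496). A gene's own spread between arrays thus did not enter the calls of either setting. Both settings are among the alternatives counted below. No slide block was possible, because all arrays share 1 slide. The CD44+ arrays lay at positions 1 and 2 of it and the CD44- arrays at 3 and 4, so position and group cannot be told apart.

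Signs turned only among uncalled keratins. Krt35 turned to 0.10 with quantile normalization, to 0.27 with normexp and to 0.16 without CD44+ replicate 2. All other turns came from leaving out 1 array, with ranges of -0.39 to 0.76 for Krt12, -0.37 to 1.35 for Krt19, -0.62 to 2.06 for Krt20, -0.37 to 1.16 for Krt8, -0.18 to 0.95 for Krt33a, -0.16 to 0.48 for Krt71, -1.17 to 0.13 for Krt75, -1.52 to 0.93 for Krt78, -2.16 to 0.83 for Krt79, -0.30 to 0.95 for Krt9 and -0.52 to 0.16 for Krt35. Over the 14 alternatives, Krt16 passed in 11 (adjusted p up to 0.145), Krt17 in 10 (up to 0.210) and Krt10 in 8 (up to 0.230), and Krt6b passed in 7 of the 13 that could test it (up to 0.220). Krt5, Krt14, Krt15 and Krt6a, not called, passed in 9 of 14, Krt1 in 6 of 13 and Krt13 in 5 of 14. These tallies do not count independent fits. Median scaling and the authors' value table gave nearly the same values, with -6.09 for Krt14 in both. Without either CD44- array the spread of a gene's own arrays entered less. The SE of Krt5 was 0.76 there, against 1.10 in the fit with all arrays. The 11 keratins not tested were at or near background, where no fold can be given.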
